A study of Mus musculus with 29 samples.

Results

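The mouse genome carries 4 Hox clusters, and the windows examined here were the mm9 intervals that hold them. They were chr6:52095000-52220000 for Hoxa, chr11:96045000-96235000 for Hoxb, chr15:102740000-102880000 for Hoxc and chr2:74490000-74615000 for Hoxd. The windows are fixed by position and cover 38 Hox genes (10 of Hoxa, 10 of Hoxb, 9 of Hoxc and 9 of Hoxd). No measured value enters that rule, but earlier results of these data were known when the windows were chosen. Every deposited peak that overlapped a window by at least 1 bp was taken, which gave 452 of 1190714 peaks in 26 lists. Hoxb held 228 of them, Hoxa 141, Hoxc 47 and Hoxd 36. The windows also held 662 of the 2070063 segments of 4 chromatin-state maps.

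The cells were RAW264.7, a mouse macrophage-like line transformed by Abelson murine leukemia virus. They were untreated, given lipopolysaccharide (LPS, a component of bacterial outer membranes that macrophages sense) at 100 ng/ml for 1 h or 4 h, given flavopiridol (an inhibitor of the kinase that releases paused RNA polymerase II) for 1 h, or given flavopiridol for 1 h before LPS for 4 h. Chromatin immunoprecipitation sequencing of 7 histone marks gave 25 lists and that of the transcription factor PU.1 gave 1, and 3 input samples have no list here. Every mark had 1 library per condition in 1 cell line, so differences have no replicate error and no test, and the read depth of the libraries is unknown. H3K27me3, H3K4me3, H3K27ac, H3K36me3 and H3K79me2 were profiled untreated and at both LPS times, H3K4me1 and H3K36me2 also with flavopiridol, and PU.1 in untreated cells.

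Hox genes encode homeodomain transcription factors that give cells their position along the body axis, and their order along the chromosome follows the order in which they are used. Polycomb repressive complex 2 places H3K27me3 over Hox clusters in cells that do not use them, while Trithorax-type complexes place H3K4me3 at their promoters. H3K27ac marks active promoters and enhancers, H3K79me2 and H3K36me3 mark the transcribed bodies of genes, H3K4me1 marks enhancers and promoter flanks, and PU.1 (encoded by Spi1) is a lineage factor of macrophages that binds purine-rich sites around GAGGAA.

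Hox promoters are rich in CpG dinucleotides, the feature of DNA most closely tied to where Polycomb and H3K4me3 settle in mammals. For each cluster the promoter with the most CG is printed, out of 10 found for Hoxa, 3 for Hoxb, 1 for Hoxc and 10 for Hoxd. Each runs from 250 bases before to 50 bases after the start, 5′ to 3′ on the strand of the gene, with each CG in capitals. They come from RefSeq on GRCm38.p6, a build other than the mm9 of the peaks, so no promoter was placed inside a peak. Hoxa13 is on the minus strand and the others are on the plus strand.
Hoxa13: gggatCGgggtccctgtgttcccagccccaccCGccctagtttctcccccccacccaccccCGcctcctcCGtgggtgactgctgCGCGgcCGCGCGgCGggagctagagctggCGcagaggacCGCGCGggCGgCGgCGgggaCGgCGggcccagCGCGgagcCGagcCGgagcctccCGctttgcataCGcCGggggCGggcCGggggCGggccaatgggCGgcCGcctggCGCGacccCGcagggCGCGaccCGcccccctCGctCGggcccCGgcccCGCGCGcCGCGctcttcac
Hoxb4: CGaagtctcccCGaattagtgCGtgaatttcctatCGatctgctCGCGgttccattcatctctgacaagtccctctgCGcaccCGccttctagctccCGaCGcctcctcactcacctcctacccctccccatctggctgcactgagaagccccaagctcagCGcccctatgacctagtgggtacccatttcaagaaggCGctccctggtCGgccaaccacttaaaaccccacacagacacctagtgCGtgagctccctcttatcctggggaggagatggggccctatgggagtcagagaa
Hoxc4: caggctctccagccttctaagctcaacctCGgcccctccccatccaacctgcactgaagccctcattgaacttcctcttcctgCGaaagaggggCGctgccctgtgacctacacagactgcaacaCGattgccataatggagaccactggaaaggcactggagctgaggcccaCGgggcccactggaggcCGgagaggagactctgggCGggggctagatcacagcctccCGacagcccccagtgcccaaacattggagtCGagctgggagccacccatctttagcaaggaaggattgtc
Hoxd13: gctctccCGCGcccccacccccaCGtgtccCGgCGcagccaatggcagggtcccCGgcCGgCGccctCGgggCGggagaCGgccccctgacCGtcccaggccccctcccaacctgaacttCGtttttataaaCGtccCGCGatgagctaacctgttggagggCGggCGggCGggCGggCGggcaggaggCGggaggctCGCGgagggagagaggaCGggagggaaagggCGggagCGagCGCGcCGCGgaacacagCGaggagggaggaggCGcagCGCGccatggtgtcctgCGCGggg

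Hoxa13 and Hoxd13, the most posterior genes of their clusters and regulators of limb and genital patterning, had the densest CG of the 4. The Hoxa13 promoter was 81.0% G or C with 45 CG, a number that 1.95% of 32619 RefSeq promoters reach. The Hoxd13 promoter was 74.3% G or C with 37 CG, reached by 5.62%. Hoxb4, a regulator of blood stem cell expansion, had 14 CG at 58.0% G or C, and Hoxc4 had 9 at 60.3%; 36.5% and 46.1% of all promoters hold at least as many. A promoter was found for 22 of the 38 genes, with 24 promoters in all, and their median was 14.5 CG at 57.7% G or C against 7 and 53.0% over all promoters. Members varied widely: Hoxa9, a factor of blood progenitors, Hoxd4 and 1 of the Hoxd11 promoters held 4 CG each. GAGGAA, searched on both strands, occurred in 4 of the 24 promoters, or 16.7%, against 28.2% of all promoters. Hoxa9 had 4 matches, and Hoxb8, Hoxc4 and that Hoxd11 promoter had 1 each. A match describes the letters only. Coverage of the clusters was uneven, as 9 of 10 Hoxa genes and 9 of 9 Hoxd genes matched, but 3 of 10 Hoxb genes and 1 of 9 Hoxc genes.

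In untreated cells H3K27me3 peaks covered 100% of the Hoxc window, 94.0% of Hoxd, 70.8% of Hoxa and 65.5% of Hoxb. Over the 4 windows together this was 81.1%, against 13.7% of the genome (chromosomes 1 to 19 and X). Of 26378 stretches of 100 kb of the genome, 6.59% were at least 60% inside H3K27me3 and 0.834% were at least 90% inside it. All 4 windows thus lay above the first of these levels, and Hoxc and Hoxd also above the second. The median stretch had none and the 95th percentile was 65.8%, so the Hoxb window stood just under that percentile.

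**Figure D1:**
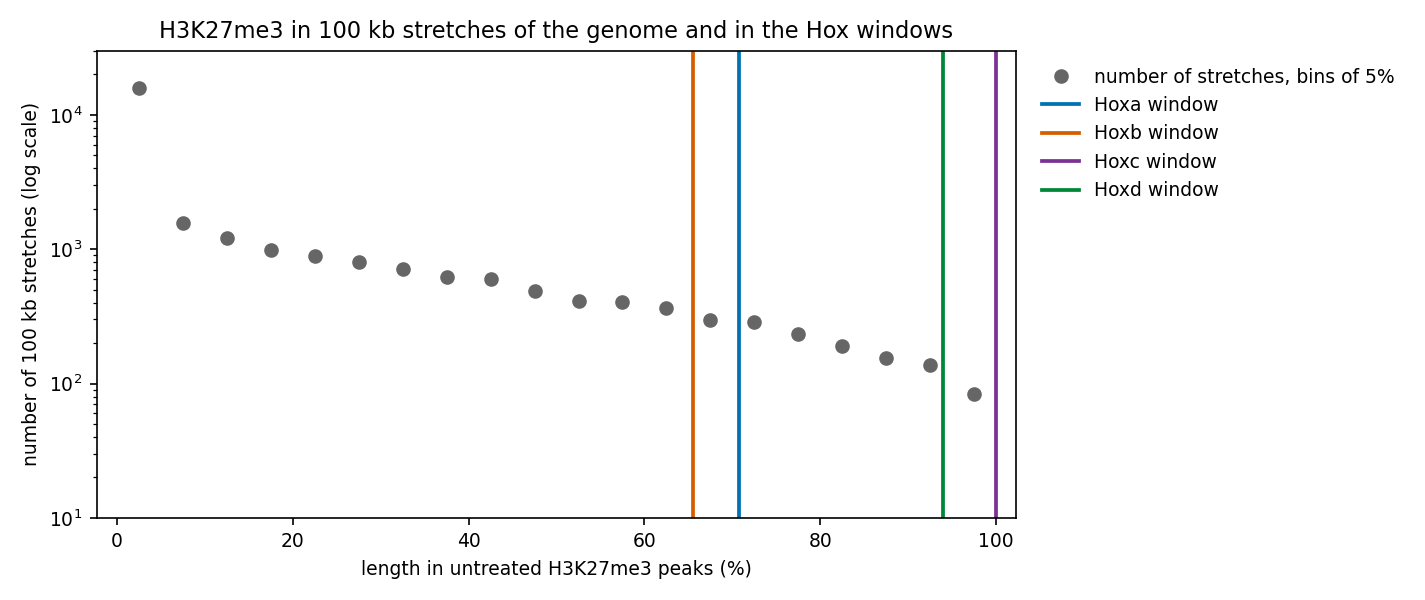
Number of 100 kb stretches of the genome (log scale) by the share of their length in untreated H3K27me3 peaks (%), as points for bins of 5%. Vertical lines give the same share of the Hoxb (65.5%), Hoxa (70.8%), Hoxd (94.0%) and Hoxc (100%) windows, all on the right side where stretches are few.

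The domains were wide and few. The 12 untreated H3K27me3 peaks that touched the windows were 10.6 to 163.6 kb wide, so 12 of 12 were at least 10 kb, as were 14.0% of the 66659 peaks of the genome (median 2621 bp, widest 207.6 kb). Hoxc lay inside a single peak, chr15:102719421-102883022, which ranked 6 in width in the genome. The widest Hoxb peak, chr11:96021926-96145046, spanned 123 kb and ranked 28. The widest at Hoxa was chr6:52156354-52253160, at 96.8 kb and rank 65, and the widest touching Hoxd was chr2:74417875-74493269, at 75.4 kb and rank 136, most of it outside the window. By RefSeq gene order on GRCm38.p6 the low-coordinate end of the Hoxa cluster is its anterior end (Hoxa2, Hoxa3) and the high end its posterior end (Hoxa13). Hoxd runs from the posterior gene to the anterior one, and so does Hoxb by the 3 genes matched there (Hoxb1, Hoxb4 and Hoxb8). Only 1 Hoxc gene was matched, so no order was read for Hoxc. In that orientation the widest Hoxa and Hoxb peaks both lay toward the posterior end of their windows. The longest stretch without H3K27me3 at Hoxa lay toward the anterior end. That at Hoxb did not reach the anterior end of the window. There the second Hoxb peak, chr11:96210622-96253523, covered 24379 bp of the window. Genes were not placed in mm9 coordinates here, so which promoters lie in a peak is not stated.

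**Figure D2:**
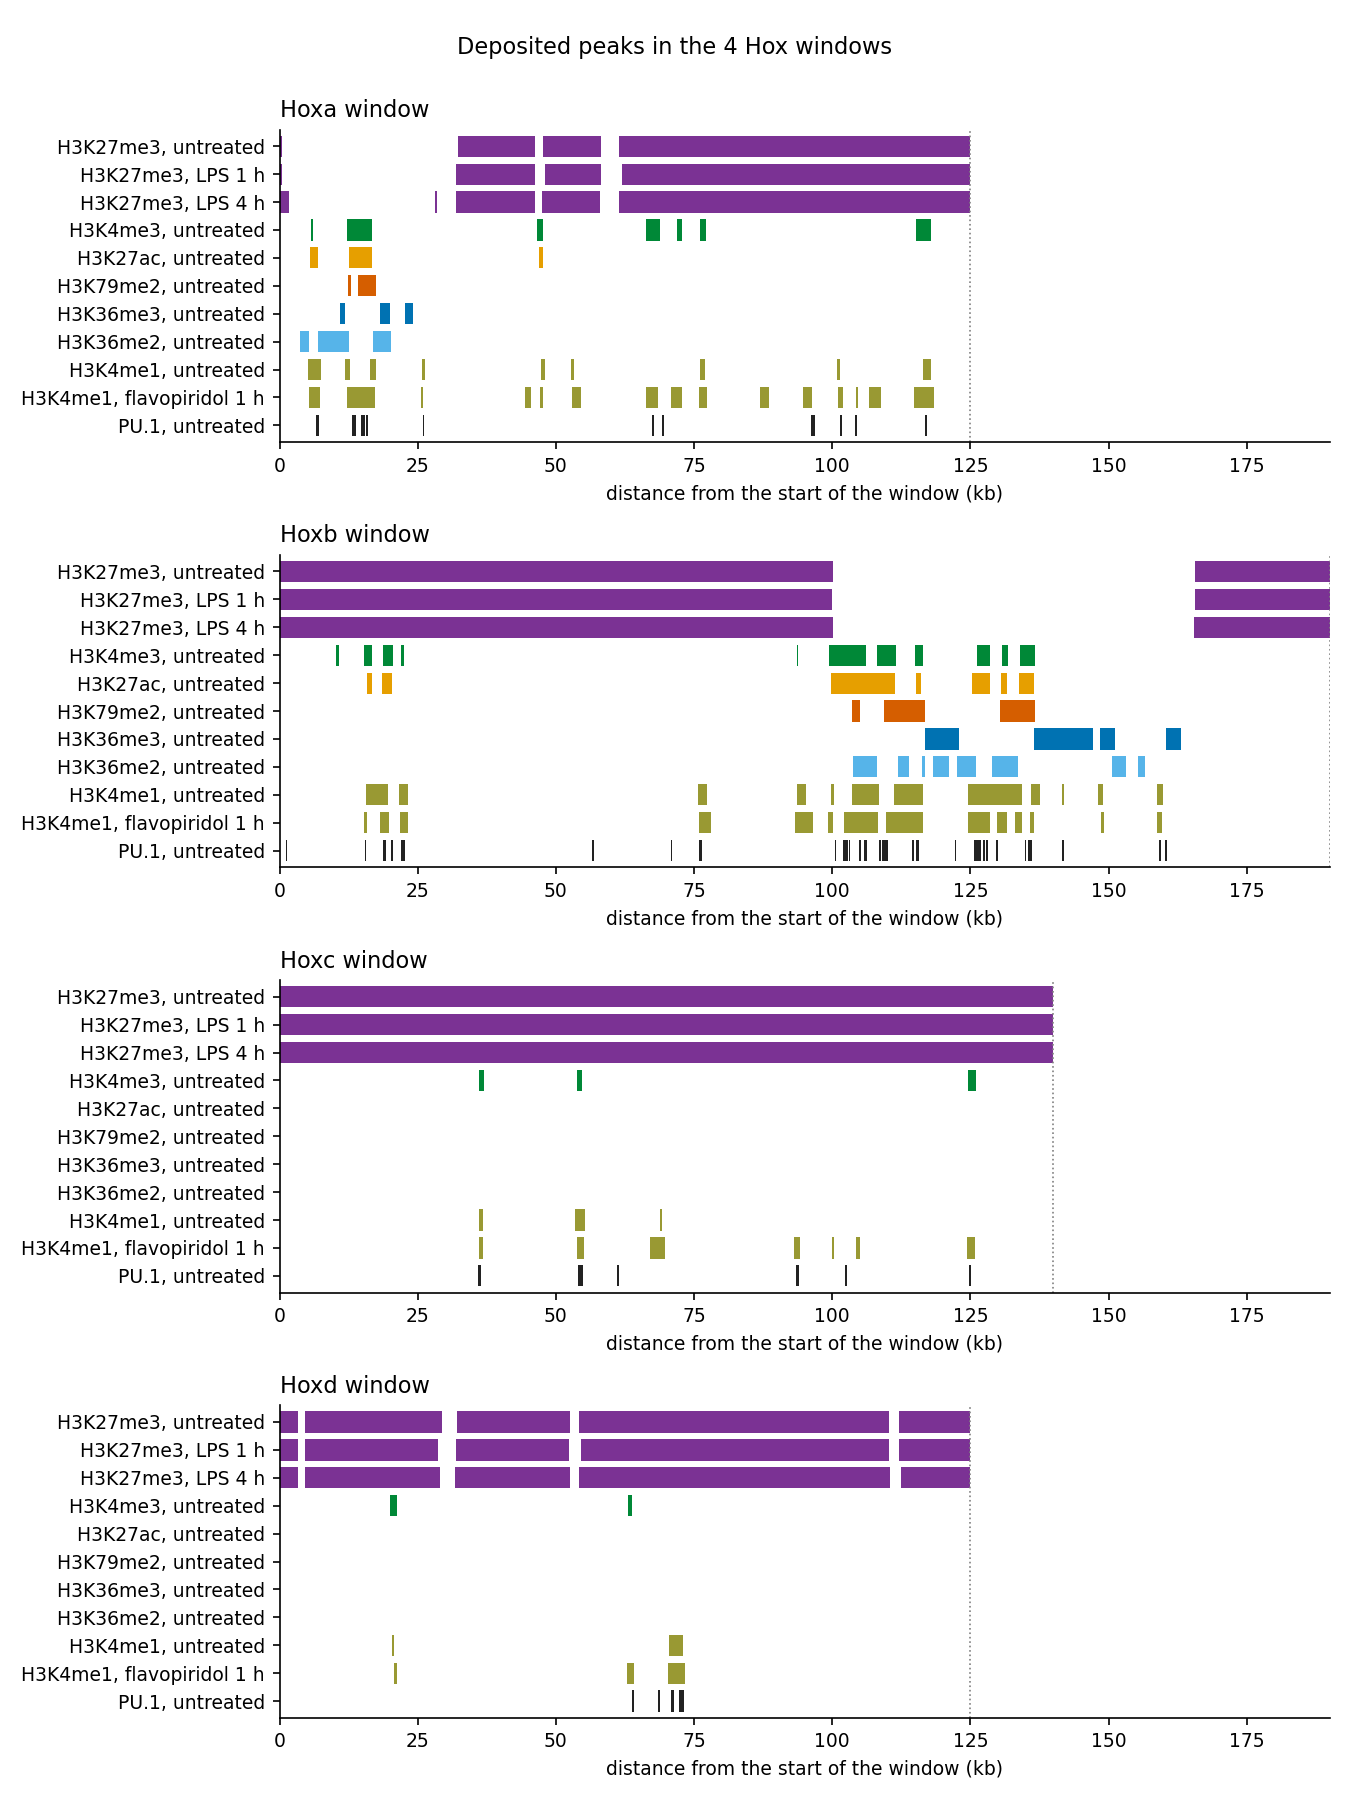
Peaks of each mark along the 4 Hox windows, with distance from the window start (kb) on the x axis and 1 row per mark and condition; a dotted line marks the window end. H3K27me3 spans the Hoxc and Hoxd windows almost without a break, whereas Hoxa and Hoxb each have 1 long gap (31.9 and 65.6 kb) in which the active marks are gathered.

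With every deposited peak counted, coverage at the 2 LPS times differed little from that in untreated cells. Hoxa was 70.8% covered untreated, 70.3% at 1 h and 72.3% at 4 h. Hoxb was at 65.5, 65.4 and 65.6%, Hoxd at 94.0, 93.3 and 94.0%, and Hoxc at 100% in each list. The Hoxc window lies inside 1 peak that runs past both of its ends, so its coverage could not rise and would not show a shift of the peak's ends. These shifts of at most 1.53 percentage points compare with a genome that went from 13.7 to 14.4 and 16.1%. Base by base, 99.5% of the untreated H3K27me3 length in the 4 windows was still in a peak at 1 h and 99.8% at 4 h, against 89.0% and 91.6% over the genome. The genome value covers peaks of every width, whereas the untreated peaks of the windows were all at least 10 kb.

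The edges moved little as well. Over 16 peak edges inside the windows the median shift from untreated cells was 113.5 bp at 1 h and 108.5 bp at 4 h, against 354.5 and 484 bp over 18678 edges of peaks of at least 10 kb in the genome. The longest stretch gained at Hoxa was 371 bp at 1 h (chr6:52126964-52127334) and 1194 bp at 4 h (chr6:52095436-52096629), and the longest lost was 534 bp at 1 h (chr6:52156354-52156887) and 93 bp at 4 h (chr6:52153064-52153156). At Hoxb nothing was gained and at most 67 bp lost at 1 h (chr11:96210622-96210688), and at most 234 bp gained and nothing lost at 4 h (chr11:96210388-96210621). Hoxc neither gained nor lost any. At Hoxd the longest gains were 266 bp at 1 h (chr2:74521844-74522109) and 413 bp at 4 h (chr2:74521697-74522109), and the longest losses were 611 bp at 1 h (chr2:74518710-74519320) and 250 bp at 4 h (chr2:74602161-74602410). Each of these touches the end of a peak, so they are shifts of borders rather than new or vanished domains; the exception was a separate 298-bp peak at Hoxa at 4 h, chr6:52123146-52123443.

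The deposited significance of a domain did not follow its extent. At Hoxd the peak at chr2:74494596-74519320 carried a deposited −log10 q of 6.78 untreated, while the matching peak had 2.54 at 1 h and 7.51 at 4 h. Its neighbour at chr2:74522110-74542635 went the other way, with 2.54, 8.76 and 2.05. The Hoxc domain had 5.32, 4.76 and 5.42, and the Hoxb peaks stayed between 2.04 and 2.79. With peaks under a −log10 q of 5 left out, the steady coverage over LPS no longer held. The 4 windows were then covered to 41.8% untreated, 24.0% at 1 h and 39.9% at 4 h. Hoxc went from 100 to 0 and 100%, Hoxd from 22.4 to 61.0 and 22.3%, and Hoxa from 59.4 to 50.5 and 50.9%, while Hoxb was at 0% in each list. The genome was at 1.53, 1.54 and 1.61% under the same limit. The extents and their steadiness above thus rest on peaks of all deposited q values.

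Hoxa and Hoxb each held 1 stretch of over 5 kb without H3K27me3 in untreated cells, and Hoxc and Hoxd held none. At Hoxb it was chr11:96145047-96210621, 65.6 kb long, of which 100% was still free at 1 h and 99.6% at 4 h. At Hoxa it was chr6:52095436-52127334, 31.9 kb long, with 98.8% free at 1 h and 94.0% at 4 h. Shorter gaps occurred too. At Hoxa, chr6:52141149-52142602 (1454 bp) was 69.7% inside H3K4me3 and 45.0% inside H3K27ac, and chr6:52153157-52156353 (3197 bp) had none of H3K4me3, H3K27ac, H3K4me1 and PU.1. The 4 gaps at Hoxd, 1326 to 2789 bp long, also had none of these. Gaps of the Polycomb domain thus came in a marked and an unmarked kind.

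With every deposited peak counted, the Hoxb gap carried the marks of transcribed chromatin. It contained 100% of the window's H3K79me2, H3K36me3 and H3K36me2, 86.5% of its H3K27ac and 75.6% of its H3K4me3. H3K27ac covered 29.6% of the gap and 2.43% of the rest of the window. The acetylated peaks outside the gap, chr11:96060870-96061780 and chr11:96063483-96065375, lay wholly inside H3K27me3. Inside or at the edge of it, H3K27ac peaks were chr11:96144825-96156355 (11531 bp, the widest), chr11:96160128-96161002, chr11:96170201-96173584, chr11:96175528-96176650 and chr11:96178849-96181582. H3K79me2, a mark of early elongation, formed chr11:96148578-96149974, chr11:96154291-96161840 and chr11:96175411-96181741. H3K36me3, placed behind elongating polymerase, formed chr11:96161767-96167914, chr11:96181411-96192244, chr11:96193444-96196171 and chr11:96205412-96208175. H3K79me2 overlapped the acetylated peaks rather than following them. Its peak chr11:96148578-96149974 lay wholly inside the widest acetylated peak, and chr11:96154291-96161840 began inside that peak and ran past its end. The third, chr11:96175411-96181741, spanned the acetylated peaks chr11:96175528-96176650 and chr11:96178849-96181582. H3K36me3 at chr11:96161767-96167914 and chr11:96181411-96192244 began near the high ends of chr11:96154291-96161840 and chr11:96175411-96181741. On GRCm38.p6 Hoxb1, Hoxb4 and Hoxb8 are transcribed toward higher coordinates. The untreated H3K36me3 peaks, in the order listed, had a deposited −log10 q of 2.56, 2.79, 3.65 and 1.20. The H3K79me2 peaks had 0.917, 16.0 and 1.95, and the H3K36me2 peaks of the gap had at most 3.33 untreated. The −log10 q limit used above for H3K27me3 would thus leave only chr11:96154291-96161840 of the peaks of these marks. The layout around chr11:96175411-96181741 has no H3K79me2 or H3K36me3 above that limit, and that around chr11:96154291-96161840 has no H3K36me3.

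The same marks were present at Hoxa on a smaller scale. The 31.9-kb gap held 100% of the window's H3K79me2, H3K36me3 and H3K36me2, 89.4% of its H3K27ac and 36.0% of its H3K4me3. The core was an H3K4me3 peak at chr6:52107285-52111651, overlaid by H3K27ac at chr6:52107512-52111811. H3K79me2 was at chr6:52107335-52107912 and chr6:52109241-52112489, and H3K36me3 at chr6:52105974-52106806, chr6:52113181-52115040 and chr6:52117730-52119069, on both sides of the core. A second acetylated site, chr6:52100450-52102013, lay near the low end of the gap, and a further one, chr6:52141949-52142641, lay across the high edge of the 1454-bp gap. Together H3K27ac, H3K79me2 and H3K36me3 covered 27.2% of the Hoxb window and 9.16% of Hoxa, against 13.1% of the genome, and none of Hoxc or Hoxd. With peaks under a −log10 q of 5 left out the Hoxb value was 13.7% and that of the genome 9.57%, while Hoxa stayed at 9.16%. Hoxc and Hoxd had no H3K79me2, H3K36me3 or H3K36me2 peak in any list of any condition.

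Across LPS this union of active marks was 9.16, 8.02 and 10.4% of Hoxa (untreated, 1 h and 4 h), 27.2, 27.0 and 26.5% of Hoxb, and 0, 0 and 0.964% of Hoxc. Hoxd stayed at 0% and the genome at 13.1, 13.0 and 13.1%. At Hoxa H3K79me2 covered 3.06, 3.28 and 4.53% and H3K36me3 3.23, 3.52 and 4.48%, so both were highest at 4 h in these single libraries. By 4 h the H3K79me2 at the Hoxa core was 1 peak, chr6:52107619-52113283. At Hoxb H3K79me2 covered 8.04, 7.77 and 9.16% and H3K36me3 11.8, 11.6 and 10.8%. H3K36me2, a broad mark of active and intergenic chromatin, had the widest spread of the 7 marks at Hoxb, with 11.4, 12.7 and 19.2% against 10.7, 12.1 and 13.2% of the genome. At Hoxa it covered 8.42, 6.98 and 11.5%. H3K4me1 covered 7.12, 8.04 and 9.38% of Hoxa, 17.5, 14.0 and 17.5% of Hoxb, 2.02, 4.88 and 2.68% of Hoxc and 2.29, 2.01 and 2.20% of Hoxd, against 7.28, 6.68 and 7.59% of the genome. The largest of these differences was at 1 h at Hoxb and Hoxc, in opposite directions, and at 4 h both were back within 1 percentage point of untreated cells.

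**Figure D3:**
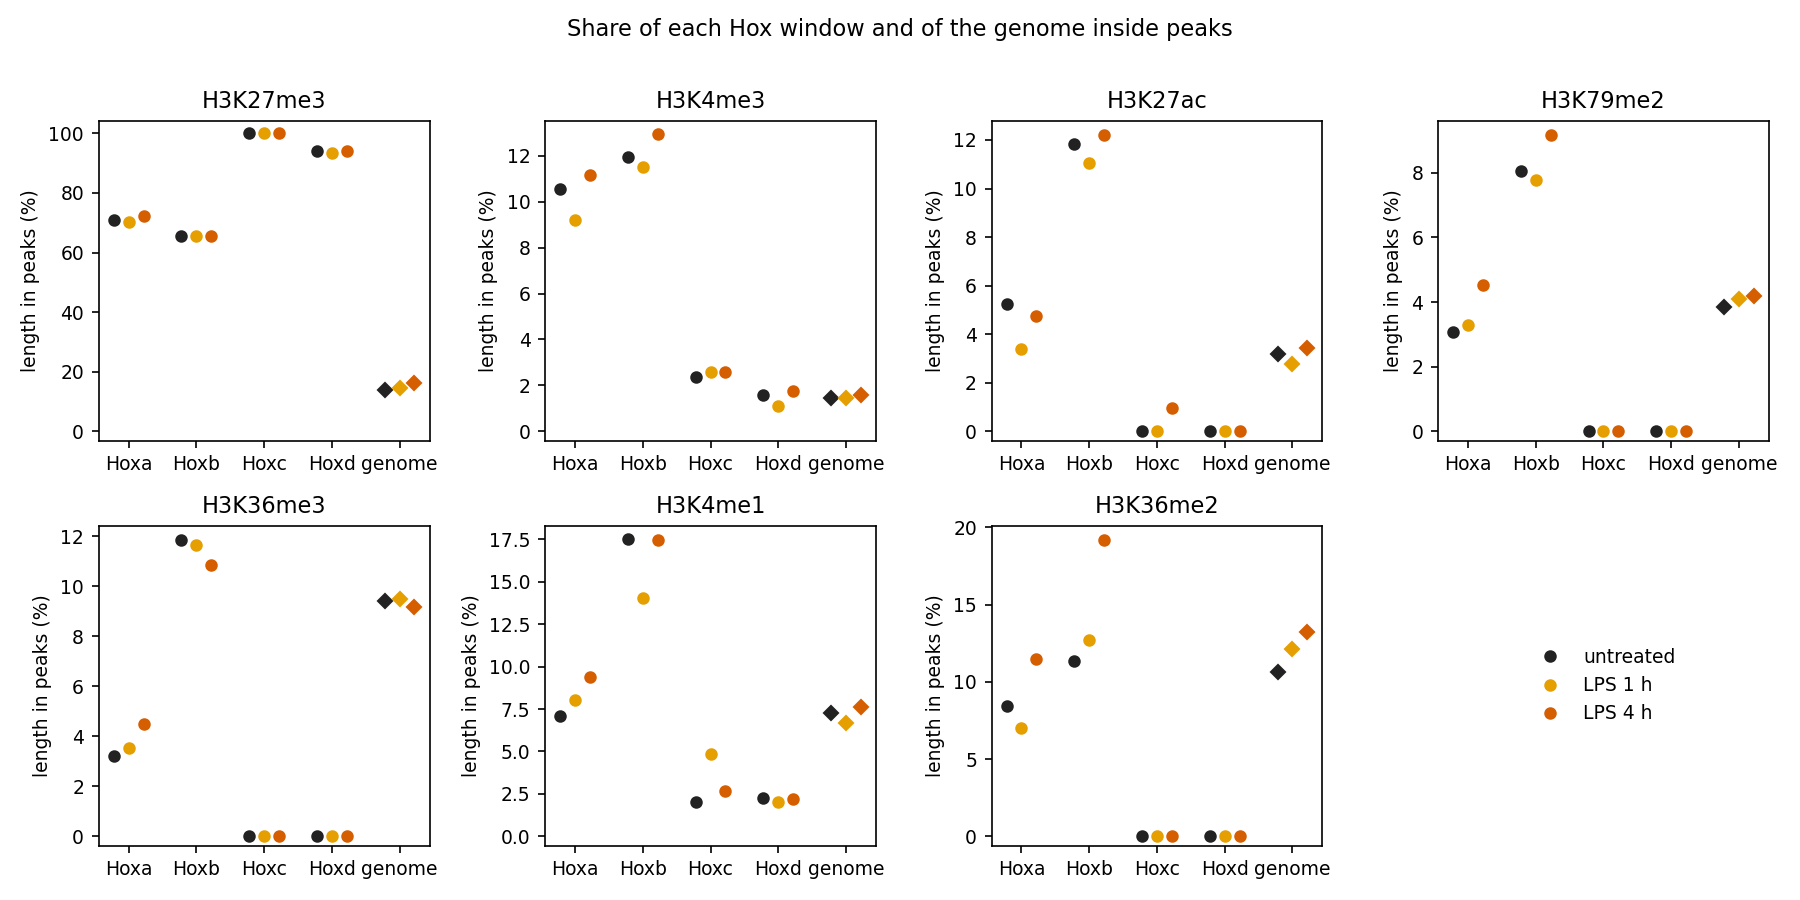
Share of each Hox window (circles) and of the genome (diamonds) inside peaks of 7 marks (%), each point 1 library, untreated or with LPS for 1 h or 4 h. H3K27me3 lies at 65 to 100% of the windows against about 14 to 16% of the genome, and Hoxc and Hoxd have no H3K79me2, H3K36me3 or H3K36me2.

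H3K4me3 was present inside the Polycomb domains of all 4 windows. In untreated cells it covered 11.95% of Hoxb, 10.6% of Hoxa, 2.38% of Hoxc and 1.60% of Hoxd, against 1.45% of the genome. The 2 untreated Hoxd peaks had a −log10 q of 4.33 and 1.62. A limit of 5 thus left 0% of Hoxd untreated, and 1.08 and 1.77% at LPS 1 h and 4 h. Of 23 untreated H3K4me3 peaks 16 overlapped H3K27me3, or 69.6% (95% Wilson interval 49.1 to 84.4%, counting error only), against 11.9% of the genome's H3K4me3 peaks. H3K27me3 took 81.1% of the length of the windows and 13.7% of the genome, so in both the share of H3K4me3 peaks was below the share of length. The share was 14 of 21 at 1 h and 18 of 24 at 4 h, against 11.4% and 13.5%. By length 44.4% of the windows' H3K4me3 was inside H3K27me3 in untreated cells (4.95% in the genome), 41.5% at 1 h and 47.3% at 4 h. The overlap of marks is between separate libraries of cell populations, so whether they share a nucleosome or a cell cannot be told apart.

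At Hoxc and Hoxd every H3K4me3 peak of every list lay inside H3K27me3. H3K27me3 covered 100% of Hoxc and 93.3 to 94.0% of Hoxd in each list. At Hoxc no peak could thus lie outside it, and at Hoxd little room was left. The 3 untreated Hoxc peaks were chr15:102776047-102776919, chr15:102793734-102794714 and chr15:102864575-102866050, and each had a counterpart at both LPS times. The 2 at Hoxd were chr2:74509940-74511287 and chr2:74553127-74553773, and the second had none at 1 h but chr2:74553351-74554165 at 4 h. At Hoxa 4 of the 7 peaks lay wholly inside H3K27me3: chr6:52161360-52163886, chr6:52166853-52167880, chr6:52171117-52172191 and chr6:52210093-52212835. The other Hoxa peaks were the core of the gap, a 379-bp peak at chr6:52100621-52100999, and chr6:52141589-52142664 at the border of the 1454-bp gap. Hoxb had 11 H3K4me3 peaks, 288 to 6614 bp wide. The widest, chr11:96144477-96151090, crossed the border of the domain, and the next, chr11:96153085-96156467 and chr11:96178915-96181652, were in the gap.

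Few H3K4me3 peaks came or went with LPS. At 1 h, 2 of 21 window peaks had no untreated counterpart (5.69% in the genome) and 4 of 23 untreated peaks had none (7.85%). At 4 h, 2 of 24 were new (9.64%) and 1 of 23 was lost (6.55%). The new peaks at 4 h were both inside the Hoxa domain, chr6:52182117-52182812 and chr6:52196020-52196772, and those at 1 h were chr6:52190206-52190575 at Hoxa and chr15:102842460-102842750 at Hoxc. The peaks lost at 1 h were the 379-bp Hoxa peak, the second Hoxd peak and, at Hoxb, chr11:96055187-96055785 and chr11:96138561-96138848, and of these only the 379-bp peak had no counterpart at 4 h. All but that one lay wholly inside H3K27me3. With counts this small a difference from the genome share cannot be read from them.

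Changes in H3K27ac peaks were few. At 1 h none of 9 peaks was new (9.05% in the genome) and 1 of 10 was lost (18.8%), chr6:52100450-52102013, which was back in part at 4 h as chr6:52100654-52101906. At 4 h 3 of 13 were new (21.3%) and none of 10 was lost (12.9%). The new ones were chr15:102776205-102776735 (531 bp) and chr15:102794000-102794818 (819 bp) at Hoxc and chr6:52171460-52171765 (306 bp) at Hoxa. All 3 lay wholly inside H3K27me3, as did 7.04% of the 7402 new H3K27ac peaks of the genome, but the windows themselves are 81.5% H3K27me3 at 4 h. All 3 overlapped an untreated H3K4me3 peak (9.48% in the genome), and the 2 at Hoxc also overlapped a PU.1 peak (46.4%). All 3 were narrower than 1 kb, as were 61.0% of the new peaks of the genome, so a minimum width of 1 kb takes H3K27ac at Hoxc back to 0% at 4 h. The untreated and 1 h lists had no H3K27ac at Hoxc.

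PU.1 bound in all 4 windows of untreated cells, with 27 peaks at Hoxb, 11 at Hoxa, 6 at Hoxc and 4 at Hoxd, 48 of 99565 in all. Per 100 kb this was 14.2, 8.80, 4.29 and 3.20, against 3.77 in the genome. Of the 48 peaks 24 overlapped H3K27me3, or 50.0% (Wilson 36.4 to 63.6%), against 10.8% of all PU.1 peaks. H3K27me3 took 81.1% of the length of the windows and 13.7% of the genome, so here too the share of PU.1 peaks was, in both, below the share of length. The other overlaps were 26 with H3K4me3 (25.0% in the genome), 19 with H3K27ac (45.2%) and 24 with H3K4me1 (69.6%). These counts were not tested against the genome. A deposited fold enrichment (the authors' value for each peak) of at least 10 was reached by 11 of 48, or 22.9% (13.3 to 36.5%), against 30.5%.

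The strong sites fell on both sides of the domain border. At Hoxa the top peaks were chr6:52108053-52108756 at 20.5-fold and chr6:52109787-52110549 at 18.95-fold, both in the acetylated core, and the next, chr6:52162433-52162821 inside H3K27me3, reached 5.34. At Hoxb the top peaks, chr11:96063762-96064299 at 19.7-fold and chr11:96067043-96067663 at 17.8-fold, were inside H3K27me3, and the third, chr11:96170603-96171967 at 13.5-fold, was in the gap. The first of these sat on 1 of the acetylated H3K4me3 sites within the Hoxb domain. At Hoxc chr15:102833434-102834014 (17.5-fold), chr15:102794057-102794952 (13.1-fold) and chr15:102775895-102776438 (11.7-fold) were all within the domain, the last 2 on the sites that had H3K27ac at 4 h. At Hoxd chr2:74553680-74554199 reached 12.8-fold, and chr2:74562206-74563085 and chr2:74560902-74561306 reached 8.87 and 6.37. The first of these overlapped the edge of an untreated H3K4me3 peak with 18.1% of its length, and its summit lay past the end of that peak. Of the 11 peaks of at least 10-fold 6 were inside H3K27me3, against 2046 of 30386 in the genome. H3K27me3 took 81.1% of the length of the windows and 13.7% of the genome. It took 100% of Hoxc and 94.0% of Hoxd, so the Hoxc peaks could not lie outside it. The median fold was 4.34 over the 48 and 4.21 within H3K27me3, against 6.33 and 5.34 in the genome.

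**Figure D4:**
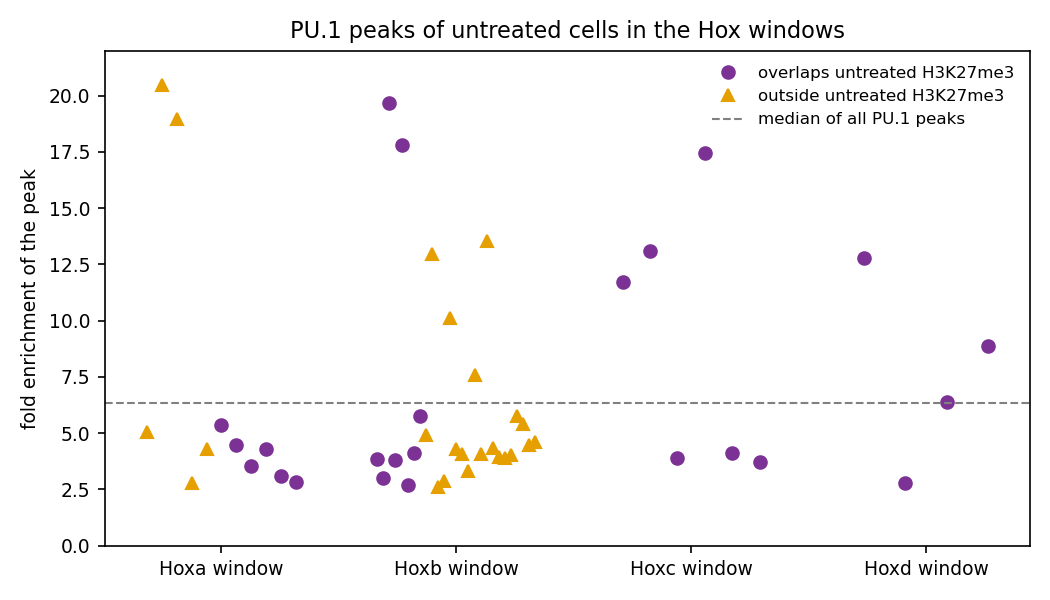
Deposited fold enrichment of each PU.1 peak in untreated cells by Hox window, each point 1 of the 48 peaks, split by overlap with H3K27me3, and the dashed line the median of all PU.1 peaks (6.33). Peaks above 10-fold appear outside H3K27me3 at Hoxa, on both sides at Hoxb, and inside it at Hoxc and Hoxd, with the highest at 20.5.

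Of the treatments, flavopiridol went with the largest difference in H3K4me1 at Hoxa. None of the input samples came from cells given flavopiridol. H3K4me1 covered 7.12% of the Hoxa window untreated and 21.6% after flavopiridol, in 9 and 15 peaks. With LPS for 4 h it covered 9.38% without flavopiridol and 18.1% with it. Hoxc went from 2.02 to 5.74% and, with LPS, from 2.68 to 8.26%, and Hoxd from 2.29 to 3.97% and from 2.20 to 4.62%. Hoxb did not share this, with 17.5 and 17.0%, and 17.5 and 13.1% with LPS. The genome moved the other way, from 7.28 to 5.45% and from 7.59 to 4.44%. Of all 100-kb stretches 0.971% gained at least 5 percentage points with flavopiridol alone and 0.334% with flavopiridol and LPS, and the Hoxa window did so in both comparisons and Hoxc in the second.

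The new H3K4me1 at Hoxa was in the Polycomb domain. Within the 31.9-kb gap H3K4me1 went from 15.0 to 23.3%, and in the rest of the window from 4.40 to 21.0%. Of the Hoxa length that was both H3K4me3 and H3K27me3 in untreated cells, H3K4me1 covered 31.4% untreated and 94.5% after flavopiridol, and with LPS 9.55% and 99.6%. At Hoxc the same shares were 51.9 and 83.6%, and 55.7 and 98.1% with LPS, and at Hoxd 19.9 and 63.9%, and 8.57 and 68.9%. At Hoxb they were 58.8 and 59.4%, and 52.2 and 51.9%. Over the genome such sites had 46.4 and 88.1%, and 47.9 and 82.6% with LPS. Sites with both marks thus had more H3K4me1 with flavopiridol over the genome too, while its total H3K4me1 was lower.

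At Hoxa the H3K4me1 peaks with flavopiridol alone carried low deposited significance, with a −log10 q of at most 4.57. This held for added peaks and for sites already marked in untreated cells. An example of the latter is chr6:52100257-52102378, at 2.36 with flavopiridol and 2.92 at the matching untreated peak. The limit used next thus takes out old and added sites there, and the genome's H3K4me1 was not computed under it. When peaks under a −log10 q of 5 were left out, the 4 windows had 3.005% untreated and 2.90% with flavopiridol, and 4.95 and 0.0540% with LPS, so the gain ended. At Hoxa the same filter left 2.94 and 0%, and 0.518 and 0.250%. H3K27me3 was not profiled with flavopiridol, so the position inside the domain refers to untreated cells. H3K36me2 at Hoxa went from 8.42 to 12.3% with flavopiridol alone and from 11.5 to 7.82% with LPS, and at Hoxb from 11.4 to 14.6% and from 19.2 to 10.6%. The genome values were 10.7 and 11.5%, and 13.2 and 8.72%, the same directions.

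**Figure D5:**
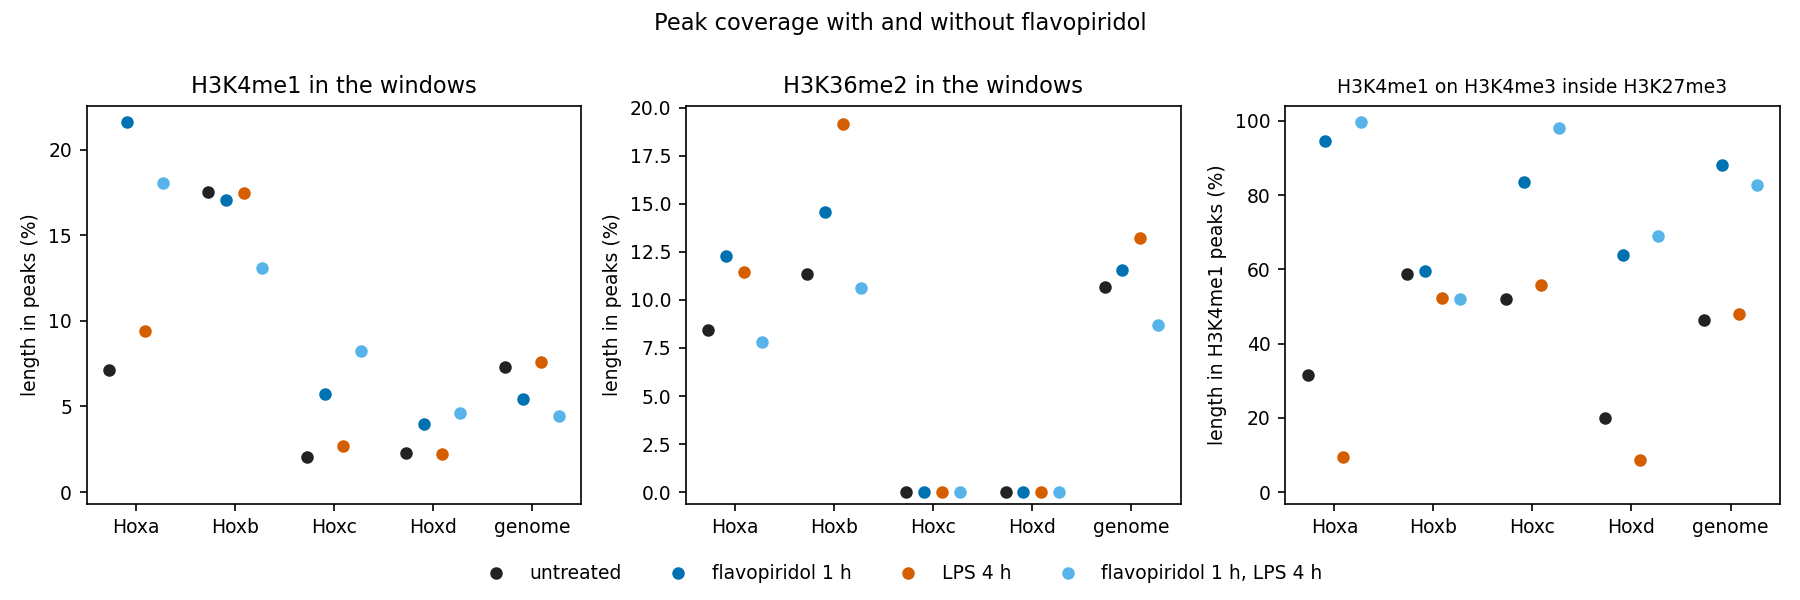
Share of each Hox window and of the genome inside H3K4me1 and H3K36me2 peaks (%), without and with flavopiridol, in cells without LPS and with LPS for 4 h, 1 library each; the right panel gives the H3K4me1 share of the length that was both H3K4me3 and H3K27me3 in untreated cells. H3K4me1 at Hoxa rises from 7.12 to 21.6% and from 9.38 to 18.1%, while the genome falls from 7.28 to 5.45% and from 7.59 to 4.44%.

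The authors' chromatin states divide the windows in steps of 200 bp. State 19 of the 27-state maps was 95.7% inside H3K27me3 with almost no other mark. It took 97.6% of Hoxc, 92.5% of Hoxd, 65.3% of Hoxa and 62.1% of Hoxb in untreated cells, or 77.9% of the 4 windows against 10.9% of the genome. Over LPS it was 78.2% at 1 h and 76.6% at 4 h, against 13.1 and 9.89% of the genome. Of the untreated state 19 steps in the windows 99.0% kept it at 1 h and 97.4% at 4 h, against 90.8% and 78.0% in the genome. As for peak length, the genome value covers domains of every width, whereas the untreated H3K27me3 peaks of the windows were all at least 10 kb. The maps were made from the same libraries, so they are no independent evidence.

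State 20 was the bivalent state, 97.9% inside H3K27me3, 91.9% inside H3K4me3 and 39.2% inside H3K4me1. It covered 14.4 kb, 2.48% of the windows against 0.0422% of the genome, and the windows, 0.0220% of the genome, held 1.29% of it. At LPS 1 h and 4 h it covered 12.8 and 17.8 kb. Hoxc and Hoxd each used 4 states in untreated cells, whereas Hoxa used 19 and Hoxb 20. Of all steps in the windows 92.5% kept their state at 1 h and 89.7% at 4 h, near the 89.0 and 87.8% of the genome. At Hoxb 87.9 and 80.3% kept it, and at Hoxc 98.9% at both times.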

How the data were processed

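Chromatin immunoprecipitation sequencing was done in RAW264.7 cells, 1 library per mark and condition. The submitters' processing notes name Bowtie 1.0.1, MACS2 and the mm9 build. Call settings, the MACS2 version, the control, pooling, read numbers and the segmentation tool were not given in the sources used here, and depth and its precision are unknown. Each peak's fold enrichment is a ratio deposited by the authors, who also deposited its −log10 p and −log10 q. Fold and q of broad peaks varied between lists, so extent, not level, was compared.

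The windows, their genes and the lists were chosen with earlier results of these data known. Peaks overlapping a window by at least 1 bp were taken, and coverage was the merged peak length over window length. Chromosomes 1 to 19 and X served as the genome, with 100-kb stretches. PU.1 intervals listed more than once were counted once. Values were computed with Python 3.11.15, numpy 2.4.6 and matplotlib 3.10.9, and the interval arithmetic was tested on simulated data.

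Regions were named by rule: per cluster the widest H3K27me3 peak, untreated H3K4me3, H3K27ac, H3K79me2 and H3K36me3 peaks (the 3 widest where over 10), gaps of at least 5 kb, the longest gained and lost H3K27me3 stretch, and the top 3 PU.1 peaks; shorter gaps, peaks new or lost with LPS and peaks whose q differed were named after their values were seen. Genes were not placed on mm9, so macrophage markers and Polycomb genes were not checked. Alternatives were a −log10 q of at least 5, a width of at least 1 kb, merging within 1 kb, windows widened by 20 kb, equal numbers or lengths of the widest peaks, 50% overlap and every deposited line for PU.1, and segments of at least 400 bp.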

Additional observations from a re-analysis of the deposited data

Results flagged for a closer look

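The coverage of some marks moved in opposite directions at the 2 LPS times, or with flavopiridol in the absence and presence of LPS. Each value is the second effect minus the first, in percentage points of window length, from single libraries, and none of these differences was tested. At Hoxa the effect of LPS at 4 h minus that at 1 h was 1.94 for H3K27me3 (−0.417 and 1.53), 1.96 for H3K4me3 (−1.36 and 0.603) and 4.50 for H3K36me2 (−1.44 and 3.06). At Hoxb it was 0.203 for H3K27me3 (−0.0679 and 0.135), 1.44 for H3K4me3 (−0.450 and 0.986), 1.14 for H3K27ac (−0.765 and 0.377) and 1.39 for H3K79me2 (−0.268 and 1.12). At Hoxd it was 0.688 for H3K4me3 (−0.511 and 0.177). The effect of flavopiridol on H3K36me2 with LPS minus that without was −7.50 at Hoxa (3.84 without and −3.66 with) and −11.8 at Hoxb (3.24 and −8.55). For H3K27me3 the opposite signs were lost with windows widened by 20 kb, where the change at 1 h was 0.0400 at Hoxa and 0.586 at Hoxb, and with a minimum −log10 q of 5, where Hoxa changed by −8.87 at 1 h and −8.48 at 4 h and Hoxb had no peak. The genome had opposite signs too for H3K4me3 (−0.0141 and 0.117), H3K27ac (−0.399 and 0.270) and, with flavopiridol, H3K36me2 (0.892 and −4.50).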

How the results depend on the processing

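Of 450 recomputed values 318 stayed within the tolerance, 126 moved beyond it and 6 changed sign. Merging peaks within 1 kb (95 values), equal numbers or equal length of the widest peaks (10 each), 50% overlap or every deposited line for PU.1 (5 each) and segments of at least 400 bp (15) moved none. In the windows no neighbouring peaks of a histone list lay within 1 kb of each other, so merging could not move a value. The widest-peak settings drop narrow peaks first, whereas all 12 untreated H3K27me3 peaks of the windows were at least 10 kb. Those settings could thus move little, yet their values count among the 318. With a minimum −log10 q of 5, H3K27me3 covered 41.8% of the 4 windows untreated, 24.0% at LPS 1 h and 39.9% at 4 h, with 59.4% of Hoxa, 0% of Hoxb and 22.4% of Hoxd untreated. Its change was −17.7 percentage points at 1 h (−100 at Hoxc), −1.86 at 4 h (sign changed), 38.6 at Hoxd at 1 h (sign changed) and −8.48 at Hoxa at 4 h (sign changed). Untreated H3K4me3 covered 6.02%, and the union of active marks 6.45, 5.97 and 6.11%. H3K4me1 covered 3.005% untreated, 2.90% with flavopiridol, 4.95% with LPS for 4 h and 0.0540% with both, and H3K36me2 0, 0, 3.77 and 0%. With peaks of at least 1 kb H3K4me1 covered 7.16, 11.1 and 7.57% in the first 3 of these.

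With windows widened by 20 kb on each side, H3K27me3 covered 84.5, 84.5 and 85.0% of the 4 windows, and untreated 77.5% of Hoxa, 70.8% of Hoxb and 99.3% of Hoxc. Its change took the opposite sign at Hoxa (0.0400) and Hoxb (0.586) at 1 h and at Hoxd (0.961) at 4 h. H3K4me3 covered 5.57, 5.18 and 6.00%, the active union 8.52, 8.28 and 8.74%, and state 19 took 81.8, 82.6 and 80.9%. H3K4me1 covered 6.61% untreated, 9.90% with flavopiridol, 7.14% with LPS for 4 h and 8.76% with both, and H3K36me2 4.34, 6.09, 6.86 and 4.05%. The tolerance was the 95% binomial interval of a share counted in steps of 200 bp, or a factor of 1.5 for counts. For a change, the intervals of both conditions were combined as a root of summed squares. Neighbouring steps often lie in the same peak, up to 163.6 kb wide for H3K27me3, so they are not independent. The tolerance is thus a yardstick for sorting the values and does not measure their error. No paired analysis was possible because no test was made with 1 library per group. Depth is unknown, so an absent peak may be one not called.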
